A study of Mus musculus with 73 samples.

Results

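Leukotrienes and prostaglandins are lipid mediators made from arachidonic acid. The 9 genes described here encode the enzymes and the helper protein that make them: Alox5, Alox5ap, Ltc4s and Lta4h for leukotrienes, and Ptgs1, Ptgs2, Ptges, Hpgds and Tbxas1 for prostanoids. They were taken by name from a table of 23994 mouse genes, and all 9 were in it.

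In this pathway a phospholipase frees arachidonate from membranes. 5-lipoxygenase (Alox5), helped by its membrane partner FLAP (Alox5ap), turns it into leukotriene A4. That intermediate is joined to glutathione by leukotriene C4 synthase (Ltc4s) or hydrolysed to leukotriene B4 by Lta4h. Leukotriene C4 and its products constrict airways and make vessels leak, and leukotriene B4 draws in neutrophils. The cyclooxygenases Ptgs1 and Ptgs2 instead form prostaglandin H2, from which the terminal synthases Ptges, Hpgds and Tbxas1 make prostaglandin E2, prostaglandin D2 and thromboxane A2. Lung macrophages are a known source of both classes of mediator.

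The cells came from 1 adult Csf1r-GFP mouse of 10 weeks, in which the Csf1r reporter marks mononuclear phagocytes and some other myeloid cells. They were taken from the right lobes 7 days after the left lung had been removed, and were sorted for CD45, the reporter and F4/80, with Ly6G named without a sign. All 73 cells form 1 group with no unoperated control in the analysis, so nothing below is an effect of the operation. Cells of 1 mouse are not replicates of a condition, and no p-value was computed. Between 347003 and 3485184 fragments per cell were assigned to mouse genes.

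To compare levels, the cells were clustered on 1000 variable genes, with every gene of the eicosanoid pathway left out. Of the 4 clusters, 12 cells were alveolar-macrophage-like, led by Ear2, Car4 and Chil3 of the air-space macrophages. A further 50 were classical-monocyte-like, led by Plac8, Ly6c2 and Ccr2, and 6 were interstitial-macrophage-like, led by the complement genes C1qa, C1qb and C1qc. The last 5 stayed unnamed and were led by class II and cell cycle genes. The mean silhouette was 0.246, and 0.243 for a cut into 3 that joined the last 2 clusters. The median depth of the unnamed cells was higher than that of the other clusters, at 3231770 mouse fragments against 1057160, 1392540 and 1359000. The mean log2(FPKM + 1) of 10 housekeeping genes was 7.37 in the alveolar-macrophage-like, 6.91 in the classical-monocyte-like, 6.17 in the interstitial-macrophage-like and 7.98 in the unnamed cells, and the part of these gaps in the values below was not tested.

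The stretches before the start sites of 3 genes are shown because these genes marked off the 2 largest clusters most plainly, with Ltc4s and Alox5 on the alveolar side and Ptgs2 on the monocyte side. They are the RefSeq sequences of build GRCm38.p6, on the strand of the gene and before its first annotated base. Ltc4s is shown at chr11:50238617-50238782 on the minus strand, Alox5 at chr6:116461179-116461428 on the minus strand and Ptgs2 at chr1:150099781-150100030 on the plus strand. Capitals mark GAGGAA, the core bound by PU.1 and other Ets factors of myeloid cells, on either strand.
Ltc4s: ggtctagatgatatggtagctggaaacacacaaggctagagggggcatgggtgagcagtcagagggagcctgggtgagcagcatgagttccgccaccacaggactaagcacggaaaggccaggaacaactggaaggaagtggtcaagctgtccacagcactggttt
Alox5: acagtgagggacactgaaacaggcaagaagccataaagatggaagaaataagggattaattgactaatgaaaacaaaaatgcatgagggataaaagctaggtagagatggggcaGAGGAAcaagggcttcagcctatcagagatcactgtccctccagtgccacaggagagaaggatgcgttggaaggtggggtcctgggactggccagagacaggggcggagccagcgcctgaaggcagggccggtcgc
Ptgs2: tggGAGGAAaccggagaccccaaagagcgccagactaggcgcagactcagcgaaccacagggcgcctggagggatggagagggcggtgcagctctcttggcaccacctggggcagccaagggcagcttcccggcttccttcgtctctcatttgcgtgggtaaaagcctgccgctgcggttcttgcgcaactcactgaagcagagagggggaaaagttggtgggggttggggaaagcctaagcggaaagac

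Ltc4s holds no GAGGAA in its 250 bases before the RefSeq start, of which the last 84 lie inside the gene's span in GENCODE and are not shown. Alox5 holds it 136 bases before the start, and Ptgs2 247 bases before. Counting Lta4h, Ptgs1, Ptges, Hpgds and Tbxas1, 7 of the 8 members with an entry held these letters, against 23.3% of all 32851 promoters of the same length. The windows of Ptges and Tbxas1 lie wholly inside the genes' spans in GENCODE, with every match counted in them. For Hpgds the last 178 bases do, and its match 49 bases before the RefSeq start is among them. The GC box GGGCGG was in 3 of the 8, Alox5, Ptgs2 and Ptges, against 32.7% of all. TATAAA was in 1, Tbxas1, against 12.4%, and so was the AP-1 motif TGANTCA, against 6.75%. These are 4 of 10 motifs searched on both strands after the levels were known. The other 6 were in 0 of the 8: the cyclic AMP element TGACGTCA, the nuclear receptor core AGGTCA, the E-box CACGTG, the C/EBP motif TTNNGCAAT, the NF-kB motif GGANTTTCC and the Egr motif GCGTGGGCG. A match describes letters in this window and says nothing of a bound factor. GAGGAA did not overlap another of these motifs in the members.

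A gene was counted as detected at FPKM (fragments per kilobase of transcript, scaled to library size) of 1 or more. By this measure 8 of the 9 genes were found in at least 1 cell, and 7 in the 8 or more cells needed for a comparison of levels, with Ptgs1 and Ptges left out. An FPKM of 1 stood for a median of 1.29 fragments of Ltc4s but 9.94 of Ptgs2, so the threshold was stricter for the long transcripts. The detection counts were nearly the same when every cell was thinned to 347002 fragments, with Ltc4s in 15, Ptgs2 in 29 and Alox5 in 10 cells, against 15, 29 and 9.

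**Figure D1:**
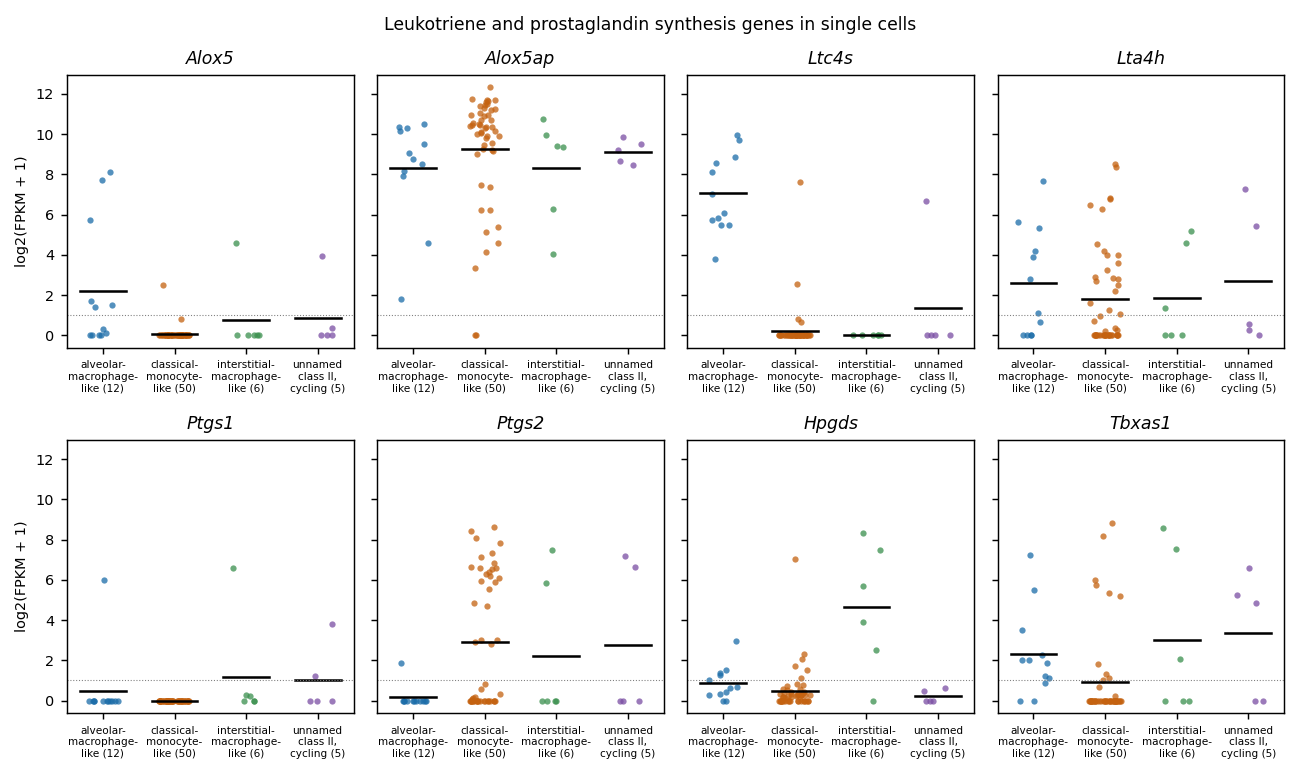
Level of 8 of the 9 genes in each of 73 cells, as log2(FPKM + 1), by cluster, with the number of cells in brackets. Each point is a cell, black bars are means and the dotted line is FPKM 1. Ltc4s lies above the line in all 12 alveolar-macrophage-like cells and Ptgs2 in 1 of them.

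The leukotriene branch begins with Alox5ap, the FLAP protein that presents arachidonate to 5-lipoxygenase. It was detected in 71 of 73 cells (97.3%, exact 95% interval 90.5 to 99.7, counting error only). In the alveolar-macrophage-like cells its FPKM ran from 2.49 to 1424 with a median of 488. In the classical-monocyte-like cells it ran from 0 to 5176 with a median of 1272, and the 2 cells without it were both in this cluster. Of these, cell 2 also held 6 endothelial markers at FPKM of 10 or more. The interstitial-macrophage-like cells held 1726, 992, 675, 651, 77.4 and 15.7, and the unnamed cells 909, 722, 590, 409 and 345. The clusters overlapped throughout. The mean was 648 ± 516 (SD over 12 cells) against 1411 ± 1164 (SD over 50 cells), a difference of -0.95 in mean log2(FPKM + 1), just short of the size of 1 used as a call. It was past that size, at -1.02, with mouse FPKM rescaled to one total per cell.

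Alox5 itself, the enzyme that starts leukotriene synthesis, was far rarer than its partner and was detected in 9 cells (12.3%, 5.795 to 22.1). Of the 12 alveolar-macrophage-like cells, 6 held it, with FPKM of 275, 208, 51.8, 2.26, 1.89 and 1.64. The other 6 were under 1. Outside this cluster it was found in 3 cells, at 23.1 in the interstitial-macrophage-like cell 94, 14.3 in the unnamed cell 30 and 4.59 in the classical-monocyte-like cell 73. Cell 73 also held 9 of 16 alveolar macrophage markers, beside 11 of 11 classical monocyte markers. The difference between the alveolar-macrophage-like and the classical-monocyte-like cells was 2.15 log2 units. Its mean of 45.1 ± 94.1 rested on 3 cells, while the 3 other cells with Alox5 stood under 2.5 FPKM. Median depth was 1012464 mouse fragments in the 6 cells with Alox5 and 1319639.5 in the 6 without.

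Ltc4s, the enzyme that commits leukotriene A4 to the cysteinyl leukotrienes, divided the clusters more sharply than any other of the 7 compared members. All 12 alveolar-macrophage-like cells held it, from 12.9 in cell 19 through a median of 98.04 to 985 in cell 29. Among the 50 classical-monocyte-like cells, only cell 75 at 194 and cell 64 at 4.92 reached an FPKM of 1. It was listed at 0 in all 6 interstitial-macrophage-like cells, and 1 of the 5 unnamed cells held it, cell 30 at 102. The lowest alveolar-macrophage-like cell thus stood above 59 of the other 61 cells. Means were 278 ± 329 (SD over 12 cells) and 4.01 ± 27.5 (SD over 50 cells), and the difference was 6.82 log2 units. The level varied widely within the cluster, so that cells 29, 87 and 85 at 985, 824 and 470 stood far above cells 36, 55 and 19 at 44.1, 43.6 and 12.9.

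The 3 cells with Ltc4s outside the cluster carried markers of more than one kind. Cell 75 held 9 of 16 alveolar macrophage markers and 8 of 11 classical monocyte markers. Cell 64 held 12 alveolar macrophage, 4 classical monocyte and 7 of 8 class II markers. Cell 30 held 1 alveolar macrophage, 10 classical monocyte, 9 of 12 cell cycle and 4 of 9 neutrophil markers, and was the deepest of the 73 cells. Whether any of these was more than 1 cell was not tested. Mast cells and eosinophils also make leukotriene C4. Of 9 mast cell markers, 6 were at 0 in every cell (Cpa3, Mcpt4, Cma1, Tpsb2, Tpsab1 and Ms4a2). The list's mean log2(FPKM + 1) was 0 in all 12 alveolar-macrophage-like cells and in the interstitial-macrophage-like and unnamed cells. In the classical-monocyte-like cells it reached 1.01. The eosinophil genes Epx, Prg2, Prg3 and Ccr3 were at 0 in every cell. The other 2 genes of that list, Il5ra and Ear6, were detected. Among the alveolar-macrophage-like cells, cells 19 and 35 held both, and cells 6 and 55 held 1. The mean over that whole list of 6 ran from 0 to 2.05 in the alveolar-macrophage-like, to 0.52 in the classical-monocyte-like, to 0.20 in the interstitial-macrophage-like and to 0.06 in the unnamed cells.

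Lta4h, which makes leukotriene B4, was spread over all clusters. It was detected in 33 cells (45.2%, 33.5 to 57.3), namely in 7 of the 12, 21 of the 50, 3 of the 6 and 2 of the 5. FPKM in the alveolar-macrophage-like cells ran from 0 through 3.59 to 204, and in the classical-monocyte-like cells from 0 through 0.17 to 361. The interstitial-macrophage-like cells 94, 65 and 50 held 35.5, 23.2 and 1.60, and the unnamed cells 30 and 84 held 156 and 42.2. The ranges overlapped in full, and the difference between the 2 largest clusters was 0.83, short of a call. It was past the call at 1.36 with a pseudocount of 0.1, and at 1.35 against only the 41 classical-monocyte-like cells with at least 7 classical monocyte markers.

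The classical-monocyte-like cluster was itself mixed for Lta4h. In a split drawn up with the values known, 5 of its cells held at least 8 of 10 non-classical monocyte markers, the signs of the patrolling monocytes of vessels, and the other 45 held 5 or fewer. Lta4h was detected in 4 of these 5, at 111, 109, 75.6 and 5.98, with the fifth at 0.64, and in 17 of the 45. Ptgs2 and Tbxas1 were detected in 0 of the 5, against 24 and 10 of the 45. Among 5 cells, 3 would make 60%. Cell 38, the one at 111, also held 4 endothelial markers at FPKM of 10 or more. Over all 73 cells, Fcgr4, a receptor for IgG found on non-classical monocytes, was the gene most like Lta4h among 3958 compared, with Spearman's rho of 0.41. Etfa, of mitochondrial electron transfer, followed at 0.41 and AI413582 at 0.40, so the 3 were close to equal.

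**Figure D2:**
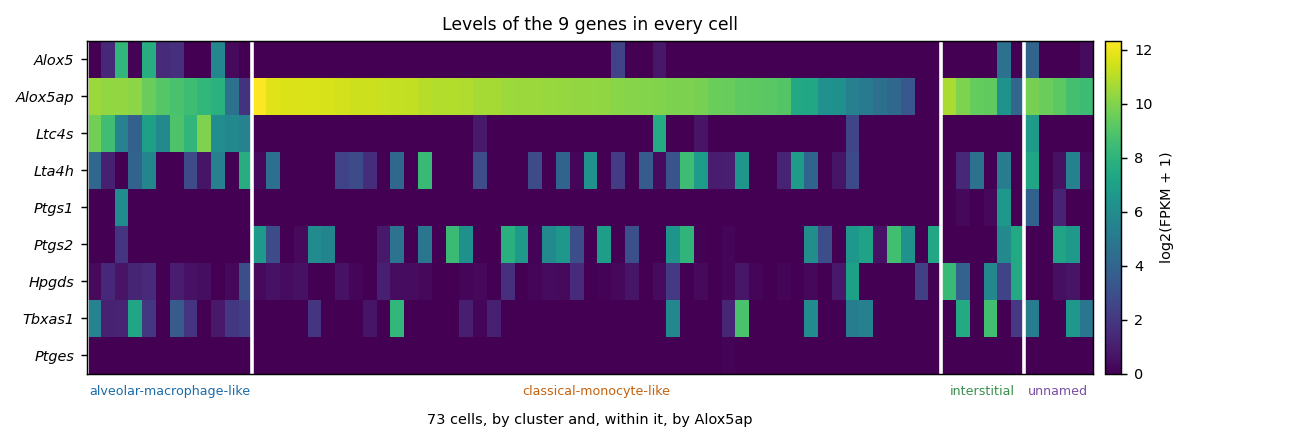
Levels of the 9 genes in all 73 cells as log2(FPKM + 1), cells in columns by cluster and, within each, by falling Alox5ap. Alox5ap fills 71 columns, whereas Alox5 and Ltc4s are mostly in the alveolar-macrophage-like block and Ptgs2 is dotted over the classical-monocyte-like block.

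On the prostanoid side, Ptgs2, the inducible cyclooxygenase, was the member with the opposite pattern to Ltc4s. It was detected in 29 cells (39.7%, 28.5 to 51.9), of which 24 were classical-monocyte-like. Values in that cluster ran from 0 through a median of 0.64 to 387. They were divided, with 20 cells at FPKM of 10 or more, 4 between 1 and 10 and 26 under 1. Median depth was 1572170 mouse fragments in the 24 cells with Ptgs2 and 1332965 in the 26 without. Of the 12 alveolar-macrophage-like cells, only cell 55 held it, at 2.71, and the other 11 were at 0. The interstitial-macrophage-like cells 11 and 94 held 177 and 56.96, and the unnamed cells 37 and 84 held 147 and 97.9, with the rest of both clusters at 0. The difference between alveolar-macrophage-like and classical-monocyte-like cells was -2.77 log2 units. The means were 0.23 ± 0.78 (SD over 12 cells) and 51.3 ± 88.98 (SD over 50 cells).

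The genes most like Ptgs2 over the 73 cells were Cited2, Il1b and Kdm6b, with rho of 0.51, 0.48 and 0.47. Il1b encodes interleukin 1 beta and was detected in 27 of the 29 cells with Ptgs2 and in 62 cells in all. Kdm6b, a histone demethylase gene, was in 72 cells. For Ltc4s the closest was Ctsk, the protease cathepsin K, with rho of 0.93, detected in 17 cells and in all 15 with Ltc4s. Atp6v0d2 and 1100001G20Rik followed at 0.85 and 0.84. These correlations share the same libraries, depths and clusters, and describe these cells.

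Ptgs1, the constitutive cyclooxygenase, was detected in 4 cells (5.48%, 1.51 to 13.4). They were cell 94 at 94.8, the alveolar-macrophage-like cell 55 at 62.2, and the unnamed cells 30 and 37 at 13.2 and 1.32. None of the 50 classical-monocyte-like cells held it, and 3 cells, the limit set here for a count of 0, would make 6%. Platelets are rich in Ptgs1 and Tbxas1. The platelet genes Gp9, Gp1bb, Treml1 and Gp6 were at 0 in every cell, and of the 7 platelet markers cells 94, 55 and 37 held 0 and cell 30 held 1. The mean log2(FPKM + 1) over the list reached 0.01 in the alveolar-macrophage-like, 0.02 in the classical-monocyte-like, 1.44 in the interstitial-macrophage-like and 0.18 in the unnamed cells.

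Ptges, the inducible synthase of prostaglandin E2, was not detected in any of the 73 cells, and 3 cells would make 4.11%. A single fragment was assigned to it, in a classical-monocyte-like cell at FPKM 0.07. Ptges3, a cytosolic synthase that also serves as a co-chaperone of Hsp90, was detected in 71 cells, and Ptges2 in 3. A 0 may also be a missed transcript, as Hprt, a gene every cell uses, was found in only 38 of the 73 cells. Hprt was in 10 of 12 alveolar-macrophage-like, 24 of 50 classical-monocyte-like, 1 of 6 interstitial-macrophage-like and 3 of 5 unnamed cells. The part of such uneven detection in the counts of other genes between clusters was not tested.

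Hpgds, the haematopoietic prostaglandin D synthase, was the member that set the interstitial-macrophage-like cells apart. They held 326, 176, 50.7, 13.7, 4.62 and 0. In the alveolar-macrophage-like cells the highest value was 6.70, and in the unnamed cells 0.55. In the classical-monocyte-like cells values ran from 0 through 0.17 to 130, the last in cell 64, and 5 others lay between 1 and 10. Detection was 5 of 6, 5 of 12, 0 of 5 and 6 of 50. The mean was 95.04 ± 131 (SD over 6 cells) against 3.001 ± 18.3 (SD over 50 cells), a difference of 4.15 log2 units. These 6 cells were joined to the unnamed cells in the cut into 3, and with k-means at 4 clusters, or with 500 variable genes, no cluster met the rule for that name.

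Low values of Hpgds were widespread. It was above 0 in 48 cells, and in 32 of these (66.7%) the FPKM was under 1, with a median of 2.50 fragments. Over 7880 genes the median share of such low values was 25%. The shares of cells with Hpgds therefore depended on the threshold, at 65.8% for any value above 0, 21.9% at FPKM of 1 and 6.85% at FPKM of 10. Where these few fragments came from was not tested. The genes most like Hpgds were Dhrs3, Mylip and Cetn3, with rho of 0.51, 0.48 and 0.46.

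Tbxas1, thromboxane A synthase, was detected in 25 cells (34.2%, 23.5 to 46.3), namely in 9 of 12 alveolar-macrophage-like, 10 of 50 classical-monocyte-like, 3 of 6 interstitial-macrophage-like and 3 of 5 unnamed cells. In the alveolar-macrophage-like cells it was frequent but mostly low, from 0 through 2.83 to 152, with 3 cells at FPKM of 10 or more. In the classical-monocyte-like cells it was rarer, and 6 of the 10 cells with it stood at 10 or more, up to 446 in cell 95. The interstitial-macrophage-like cells 15, 50 and 11 held 387, 185 and 3.16, and the unnamed cells 84, 30 and 25 held 95.7, 36.6 and 27.8. On the log scale the alveolar-macrophage-like cells were higher by 1.39 units, yet the mean FPKM of both clusters was alike, at 18.5 ± 43.6 (SD over 12 cells) and 18.7 ± 75.004 (SD over 50 cells). The interstitial-macrophage-like cells were higher by 2.12 units. Median depth was 1930205 mouse fragments in the 10 classical-monocyte-like cells with Tbxas1 and 1332965 in the 40 without. Mrc1, the mannose receptor gene, was most like Tbxas1, with rho of 0.57, followed by Dhrs3 and Dab2 at 0.53 each. Hipk2 and 1700025N23Rik overlap Tbxas1 in the genome. They were detected in 6 and 17 cells, and whether strand was used in counting is not given in the sources used here.

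Set against all genes, the members called at 1 log2 unit were 3 of 7 higher (Ltc4s, Alox5 and Tbxas1) and 1 lower (Ptgs2) in the alveolar-macrophage-like than in the classical-monocyte-like cells. Of 6151 genes found in at least 8 cells, 19.2% were higher and 9.12% lower by the same rule. Ltc4s was detected in 15 cells, 12 of them alveolar-macrophage-like, and Alox5 in 9, 6 of them alveolar-macrophage-like. Both reached 8 cells only through this cluster, so their calls as higher are tied to the filter. The median difference was 0.83 over the 7 members and 0.13 over all 6151. In the interstitial-macrophage-like cells 2 of 7 were higher (Hpgds and Tbxas1) and 0 lower, against 13.4% and 16.2% of all genes, with medians of 0.08 and -0.21. Both comparisons share the classical-monocyte-like cells. With 7 genes, these counts are a description of the members.

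**Figure D3:**
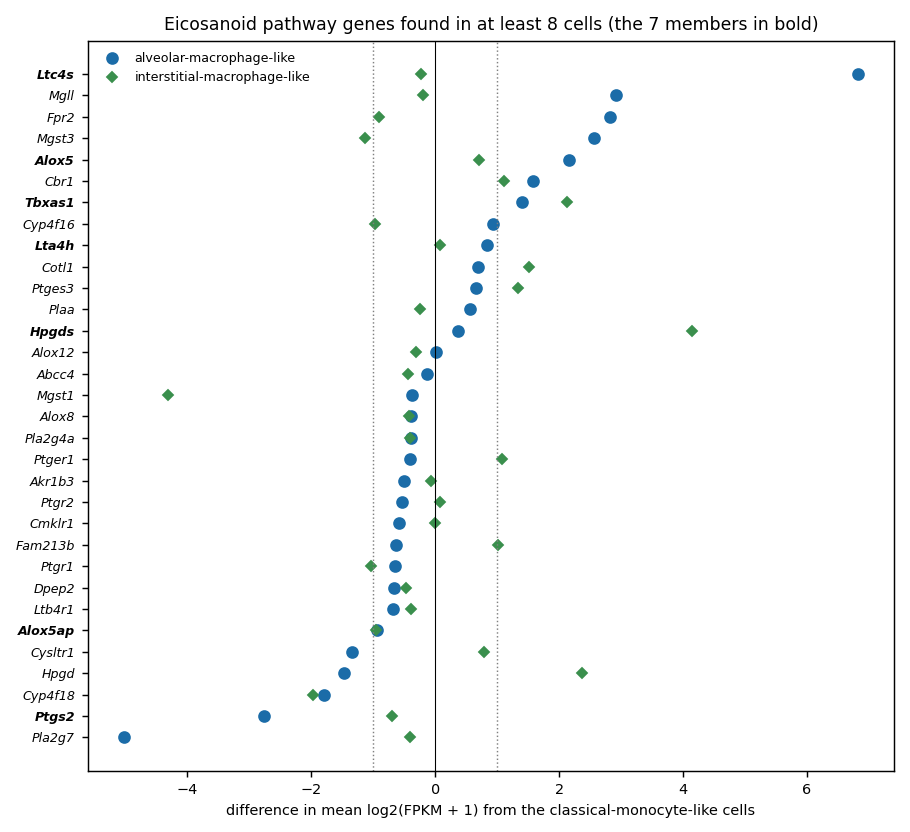
Difference in mean log2(FPKM + 1) from the classical-monocyte-like cells for 32 eicosanoid pathway genes found in at least 8 cells, members in bold. Circles are alveolar-macrophage-like and diamonds interstitial-macrophage-like cells, and dotted lines mark 1 log2 unit. Ltc4s at 6.82 and Pla2g7 at -5.02 are the ends of the alveolar-macrophage-like range.

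The rest of the pathway was read from 74 other genes in the table, of which 25 were found in at least 8 cells. In the alveolar-macrophage-like cells 4 of the 25 were higher and 4 lower, against 19.2% and 9.12% of all genes, with a median of -0.39. In the interstitial-macrophage-like cells 6 were higher and 4 lower, against 13.4% and 16.2%, with a median of -0.31. The same shares of all genes stand beside the counts of each list below. With 4 to 7 genes compared per list, those counts only describe the list. Among genes of arachidonate release, Pla2g4a, the cytosolic phospholipase A2 that feeds both branches, was found in 4 of the 12 and 11 of the 50 cells of the 2 largest clusters and was not called. Mgll, which frees arachidonate from 2-arachidonoylglycerol, was in 9 of 12 and 2 of 50, a difference of 2.91. It was at 0 in the interstitial-macrophage-like cells and reached 8 cells only through the alveolar-macrophage-like cluster. Its call as higher is thus tied to the filter. Pla2g7, which degrades platelet-activating factor, was in 0 of 12 and 36 of 50, a difference of -5.02. Of the 4 genes compared on the list drawn up for arachidonate release, 1 was higher, Mgll. The 1 lower was Pla2g7, whose substrate named above is platelet-activating factor.

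Among relatives of Ltc4s in the MAPEG family of membrane glutathione enzymes, Mgst3 was in 7 of 12 alveolar-macrophage-like, 11 of 50 classical-monocyte-like and 0 of 6 interstitial-macrophage-like cells, differences of 2.56 and -1.13. Mgst1 was in 11 of 12 and 39 of 50 and not called there, but in 2 of 6 interstitial-macrophage-like cells, a difference of -4.31. Mgst2, another enzyme able to form leukotriene C4, was in 5 of all 73 cells. In this group of lipoxygenases and MAPEG genes, which also holds Cotl1, an Alox5-binding protein, 1 of 5 was higher and 0 lower in the alveolar-macrophage-like cells. In the interstitial-macrophage-like cells 1 was higher, Cotl1, and 2 lower. Alox15 was found in 1 cell.

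Of the other prostanoid synthases, Cbr1 was the 1 of 4 called in the alveolar-macrophage-like cells, higher by 1.57 and in 4 of 12 cells. Ptges3, Cbr1 and Fam213b were higher in the interstitial-macrophage-like cells, by 1.34, 1.11 and 1.02. Ptgds and Ptgis, the synthases of prostaglandin D2 in brain and of prostacyclin, were at 0 in every cell.

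Transcripts of leukotriene receptors were not detected in the alveolar-macrophage-like cells, those with the most Ltc4s. Cysltr1, a receptor for cysteinyl leukotrienes, was in 0 of 12 alveolar-macrophage-like, 11 of 50 classical-monocyte-like, 3 of 6 interstitial-macrophage-like and 4 of 5 unnamed cells. Ltb4r1, the leukotriene B4 receptor, was in 0, 13, 1 and 3. Among 12 cells, 3 would make 25%. Only Cysltr1 of these reached the call, at -1.34. Fpr2, a receptor for lipoxin A4 and formyl peptides, was higher, by 2.83, in 7 of 12 and 7 of 50. In the interstitial-macrophage-like cells, the prostaglandin E2 receptor gene Ptger1 was the 1 of 5 receptors called, higher by 1.07 with 2 of 6 cells holding it.

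Among 7 genes of breakdown and transport, Hpgd and Cyp4f18 were lower in the alveolar-macrophage-like cells. Hpgd, which inactivates prostaglandins, was in 0 of 12, 10 of 50 and 3 of 6 cells, differences of -1.47 and, in the interstitial-macrophage-like cells, 2.37. Cyp4f18, which hydroxylates leukotriene B4, was in 3 of 12, 26 of 50 and 2 of 6, differences of -1.80 and -1.98. Ptgr1 was also lower in the interstitial-macrophage-like cells, by a difference of -1.03.

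Because the enzymes act in sequence, the cells holding every enzyme of a route were counted. Alox5, Alox5ap and Ltc4s, which together give leukotriene C4, were found in 7 cells (9.59%, 3.94 to 18.8). They were the 6 alveolar-macrophage-like cells with Alox5 and the unnamed cell 30. The product of the 3 single shares over all cells would give 1.799 cells. Within the alveolar-macrophage-like cluster it gives 6, the number seen, as all 12 cells held the 2 other genes. Among the 50 classical-monocyte-like cells the count was 0.

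Within the 12 cells the levels of Alox5 and Ltc4s did not run together. Cells 29 and 87, highest in Ltc4s at 985 and 824, had Alox5 listed at 0. Cells 55 and 35, highest in Alox5 at 275 and 208, held Ltc4s at 43.6 and 130. In cell 36 both Alox5, at 0, and Alox5ap, at 2.49, were low beside Ltc4s of 44.1, and this was the shallowest cell. After thinning to one depth, 4 to 6 of the 12 cells held the route over 20 draws.

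**Figure D4:**
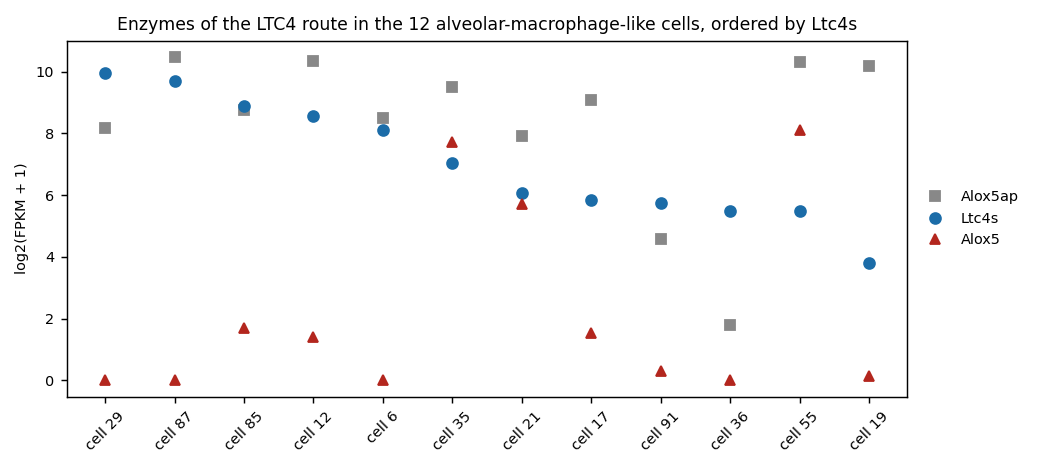
Level of Alox5ap, Ltc4s and Alox5 as log2(FPKM + 1) in the 12 alveolar-macrophage-like cells, ordered by falling Ltc4s. Ltc4s is present in every cell, while Alox5 exceeds FPKM 50 only in cells 35, 21 and 55.

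The leukotriene B4 route, with Alox5, Alox5ap and Lta4h, was complete in 6 cells (8.22%, 3.08 to 17.04), with 3.96 given by the shares. They were the alveolar-macrophage-like cells 12, 21 and 35, cells 73 and 94, and cell 30. Cells 12, 21, 30 and 35 thus held both leukotriene routes.

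A cyclooxygenase with Hpgds, for prostaglandin D2, was found in 6 cells, of which 4 were classical-monocyte-like and 2 interstitial-macrophage-like (cells 11 and 94), with 6.58 given by the shares. A cyclooxygenase with Tbxas1, for thromboxane A2, was found in 11 cells (15.1%, 7.77 to 25.4), with 10.3 given by the shares. Of these 7 were classical-monocyte-like, 2 unnamed, 1 interstitial-macrophage-like and 1 alveolar-macrophage-like, and the last, cell 55, held both cyclooxygenases. No cell held a cyclooxygenase with Ptges, the only synthase counted here for prostaglandin E2. Ptges2 and Ptges3 were not part of that route, nor was Mgst2 part of the leukotriene C4 route. Of the 9 cells with a leukotriene route and the 14 with a prostanoid route, 3 had both, namely cells 30, 55 and 94. The prostaglandin D2 count fell to 2.74% of cells at FPKM of 10 and was 35.6% with any value above 0.

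**Figure D5:**
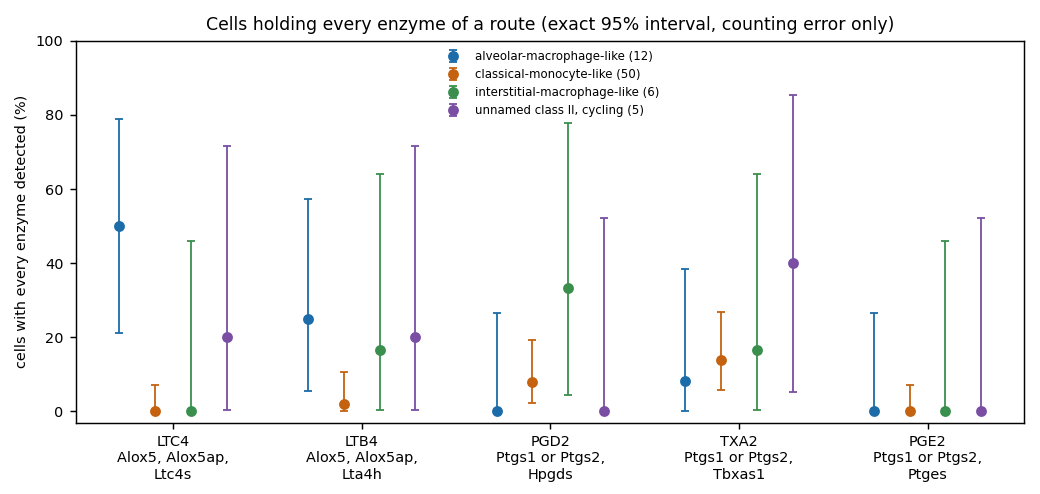
Percent of cells in each cluster with every enzyme of a route detected, with exact 95% intervals that cover counting error only. The leukotriene C4 route reaches 50% of the 12 alveolar-macrophage-like cells and 0% of the 50 classical-monocyte-like cells. The prostaglandin E2 route, counted with Ptges alone and without Ptges2 or Ptges3, is 0% in every cluster.

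Counted over the 9 genes, an alveolar-macrophage-like cell held a median of 4.5 members (range 2 to 6), a classical-monocyte-like cell 2 (1 to 6), an interstitial-macrophage-like cell 3.5 (2 to 6) and an unnamed cell 3 (1 to 6). Over all genes, the median numbers detected per cell were 2739.5, 2168.5, 1948.5 and 3238 in the same order.

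In build GRCm38 (mm10) all 9 members are annotated as protein-coding. The leukotriene genes lie at chr11:50236461-50238616 (Ltc4s, minus strand), chr6:116410077-116461178 (Alox5, minus), chr5:149264767-149288153 (Alox5ap, plus) and chr10:93453411-93484875 (Lta4h, plus). The prostanoid genes lie at chr2:36230426-36252272 (Ptgs1, plus), chr1:150100031-150108227 (Ptgs2, plus), chr2:30889471-30929863 (Ptges, minus), chr6:65117293-65144908 (Hpgds, minus) and chr6:38875404-39084585 (Tbxas1, plus).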

How the data were processed

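Single sorted cells were captured on a Fluidigm C1 chip and their polyadenylated RNA was amplified with SMARTer kits before Nextera XT indexing, per the labels' protocols. The submitters' processing notes name build mm10 and the programs TopHat2 2.1.0, Cuffnorm, Cufflinks 2.2.1 and CASAVA 1.8. Annotation and use of strand are not given in the sources used here. All levels are FPKM as deposited by the authors. The deposited count table holds a signal, fragments that the authors' tools had scaled per cell. Of its 100482 values between 0.5 and 20 steps, 99.6% lay within 0.1 of a whole step, and dividing by that step gave the fragments quoted. All 73 columns matched a sample by cell number.

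Spike-in rows (100) were taken out. Genes detected (FPKM of 1 or more) in at least 8 cells entered the comparisons, on log2(FPKM + 1), and a difference of 1 was called. The 83 pathway genes of 86 listed in 6 lists were left out of clustering (1000 variable genes, 10 principal components, Ward cuts into 2 to 6 with at least 5 cells, highest silhouette). A cluster was named where 3 of its 10 leading genes were on a marker list, out of 16 lists. Intervals are Clopper-Pearson 95%, and a count of 0 is given the share of 3 cells. Named genes are the members, pathway genes, leading genes and, for members in 15 to 65 cells, the 3 genes with the highest Spearman correlation among those detected in at least 15 cells. Motifs were sought in the 250 bases before each RefSeq start (GRCm38.p6). Members and lists were chosen with earlier results of these data known. Clustering was also run on simulated data, with genes raised in 1 set of cells and a fixed cut into 2. That run did not test the choice of 4 clusters or the small clusters. Python 3.11.15, scipy 1.17.1 and scikit-learn 1.9.0 were used.

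Of the marker lists, the neutrophil list had 3 markers at FPKM of 10 or more in 1 cell (cell 30) and the endothelial list in 3 (cells 2, 38 and 54). The mast cell, eosinophil, basophil, platelet, epithelial, fibroblast and lymphoid lists had this in 0 cells. Dendritic cell markers reached at most 3 of 10 in any cell.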

Additional observations from a re-analysis of the deposited data

Results flagged for a closer look

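Spike-in RNA entered no comparison, but took a median of 36.6% of each cell's estimated fragments. Of 100 spike-in rows, 1 held values.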

How the results depend on the processing

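Of 67 alternative values of the detection, level and route counts, 56 stayed within 1.5 times the main count or inside its interval, and 11 moved. The members lower in the alveolar-macrophage-like cells went from 1 to 2 with mouse FPKM rescaled to one total, with k-means, without cells 30 and 64, and with the 41 cells holding at least 7 classical monocyte markers as reference, each time by the addition of Alox5ap. With that reference Lta4h was also called, which made 4 members higher in place of 3. With a pseudocount of 0.1, 5 members were higher there in place of 3 (32.9% of all genes), and 1 was lower in the interstitial-macrophage-like cells in place of 0. Without cells 30 and 64, and with that reference, the last count was also 1. At a threshold of FPKM 10, 1 member was higher in place of 2 in the interstitial-macrophage-like cells, because Hpgds was then found in too few cells for the comparison, and the prostaglandin D2 route was in 2.74% of cells. With any value above 0 this route was in 35.6%. Alox5 also fell out of the comparison at FPKM 10, so 2 members in place of 3 were higher in the alveolar-macrophage-like cells. At that threshold the leukotriene C4 route went from 9.59% to 5.48% of cells and the leukotriene B4 route from 8.22% to 5.48%. These shifts are among the 56 values that stayed within the limits. With 500 variable genes there were 2 clusters, and Tbxas1 was higher by 0.98 in place of 1.39. No called difference reversed.

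Any value above 0, the settings without cells 30 and 64 and the reference of 41 cells were chosen after seeing the data. Neither 500 variable genes nor k-means gave an interstitial-macrophage-like cluster, so its values were not obtained there. No paired analysis was possible because the 73 cells form 1 group. Depth limits what a 0 means, and the 6 and 5 cells of the small clusters give wide intervals.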
